A study of Homo sapiens with 9 samples.

Results

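A probe set of an expression array is a group of short probes that reads 1 transcript or several that share sequence, and the sets described here are those that the platform annotation assigns to several genes at once, or to none, and whose level shifted with TGFβ1. Members were chosen by measured values, namely the group means of the sets. A set had to reach a log2 value of 4 on 3 or more of the 9 arrays, which is called the floor below, and its group mean at 24 h or 48 h had to lie at least 0.6 log2 from the untreated mean. By this rule 68 of 22215 probe sets were members, out of 763 sets with several genes or none that passed the floor. Of the members, 26 listed 2 or more genes and 42 had no gene in the annotation table. The 26 carried 24 different listings, since SOD2 with SOD2-OT1 and TTC3 with TTC3P1 each appeared in 2 sets. The rule itself used the 24 h and 48 h means, so differences from untreated cells are given for members as a description, with no test.

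The cells were HK-2, a human line of proximal tubule origin made immortal in culture, kept in serum-free medium with EGF, hydrocortisone, triiodothyronine and insulin-transferrin-selenium. The labels give 3 groups of 3 arrays, which were an untreated group at 0 h and groups that had been given TGFb1 for 24 h or for 48 h. The experiment was repeated on different days with consecutive passages, plates of a time point were pooled within each day, and the days are called runs 1, 2 and 3 after the replicate numbers. The series design calls the control vehicle where the sample labels call it untreated, the sources used here give no TGFβ1 dose, and without untreated cultures at 24 h and 48 h among these arrays the effect of TGFβ1 and that of time in culture cannot be told apart.

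TGFβ1 is a cytokine that signals through SMAD proteins and drives epithelial cells toward a mesenchymal state, and in the kidney it is known for its part in fibrosis. A set can list several genes for different reasons. A readthrough transcript runs from 1 gene into its neighbour and shares the neighbour's exons, a microRNA hairpin can lie inside a host gene, a pseudogene is a copy of a gene, and paralogs are related genes with similar sequence. Outside the microRNA case, the value of the set does not say which listed transcript gave the signal. In pooled RNA, fewer cells that express a gene and less RNA per cell cannot be told apart either.

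Members were placed by listing. There were 9 readthrough sets, 5 sets with a microRNA and its host, 4 with a gene and its pseudogene, 2 with SOD2 and the noncoding SOD2-OT1, and 6 with protein-coding genes alone. By the RefSeq gene table the listed genes overlapped or lay one within the other in 17 of the 26 sets, and in 5 sets they lay on different chromosomes. TTC3 lies on chromosome 21 and TTC3P1 on X, CEP170 on 1 and CEP170P1 on 4, and NUAK2 on 1 and AKIP1 on 11. All 49 genes listed by the members matched that table by gene ID.

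The 5 microRNA genes each lay inside the host gene of their set, and the array reads the host's messenger RNA rather than the mature microRNA. The mature sequences are shown because the listings name them, so that the stretch behind each name can be seen. They come from RefSeq (GRCh38.p14), which gave 7 mature sequences for 4 of the 5 genes. Each is written 5′ to 3′ with its seed, bases 2 to 8, in capitals.
hsa-miR-4640-5p (host DDR1, chr6:30890891-30890913, plus strand): uGGGCCAGggagcagcugguggg
hsa-miR-4640-3p (host DDR1, chr6:30890949-30890970, plus strand): cACCCCCUguuuccuggcccac
hsa-miR-4680-5p (host PDCD4, chr10:110898094-110898116, plus strand): aGAACUCUugcagucuuagaugu
hsa-miR-4680-3p (host PDCD4, chr10:110898131-110898151, plus strand): uCUGAAUUguaagaguuguua
hsa-miR-7109-5p (host PISD, chr22:31621506-31621526, minus strand): cUGGGGGGaggagacccugcu
hsa-miR-7109-3p (host PISD, chr22:31621473-31621494, minus strand): cAAGCCUCuccugcccuuccag
hsa-miR-3658 (host UCK2, chr1:165907923-165907944, plus strand): uUUAAGAAaacaccauggagau
The 7 seeds were all different, so the listings do not form a microRNA family.

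Of the 372 several-gene sets that passed the floor, 13 were shifted higher and 13 lower, which makes the 26 named sets. Over all 6681 sets that passed the floor, 6.56% were shifted higher and 6.42% lower. Of the 26 named sets, 17 passed the shift of 0.6 at 24 h, 18 did at 48 h, and 9 passed it at both times. None was higher by 1 log2 or more at either time, while 6 were lower by at least that much. Several-gene sets met the shift threshold in 6.99% of the 372 that passed the floor, compared with 13.5% of 5918 single-gene sets and 13% of all 6681 sets. No array of one group overlapped the untreated arrays in 15 of the 26 at 24 h and in 16 at 48 h, where the share over all sets was 15.4% and 18.2%. Those comparisons entered the rule, and nothing is read from the counts.

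**Figure D1:**
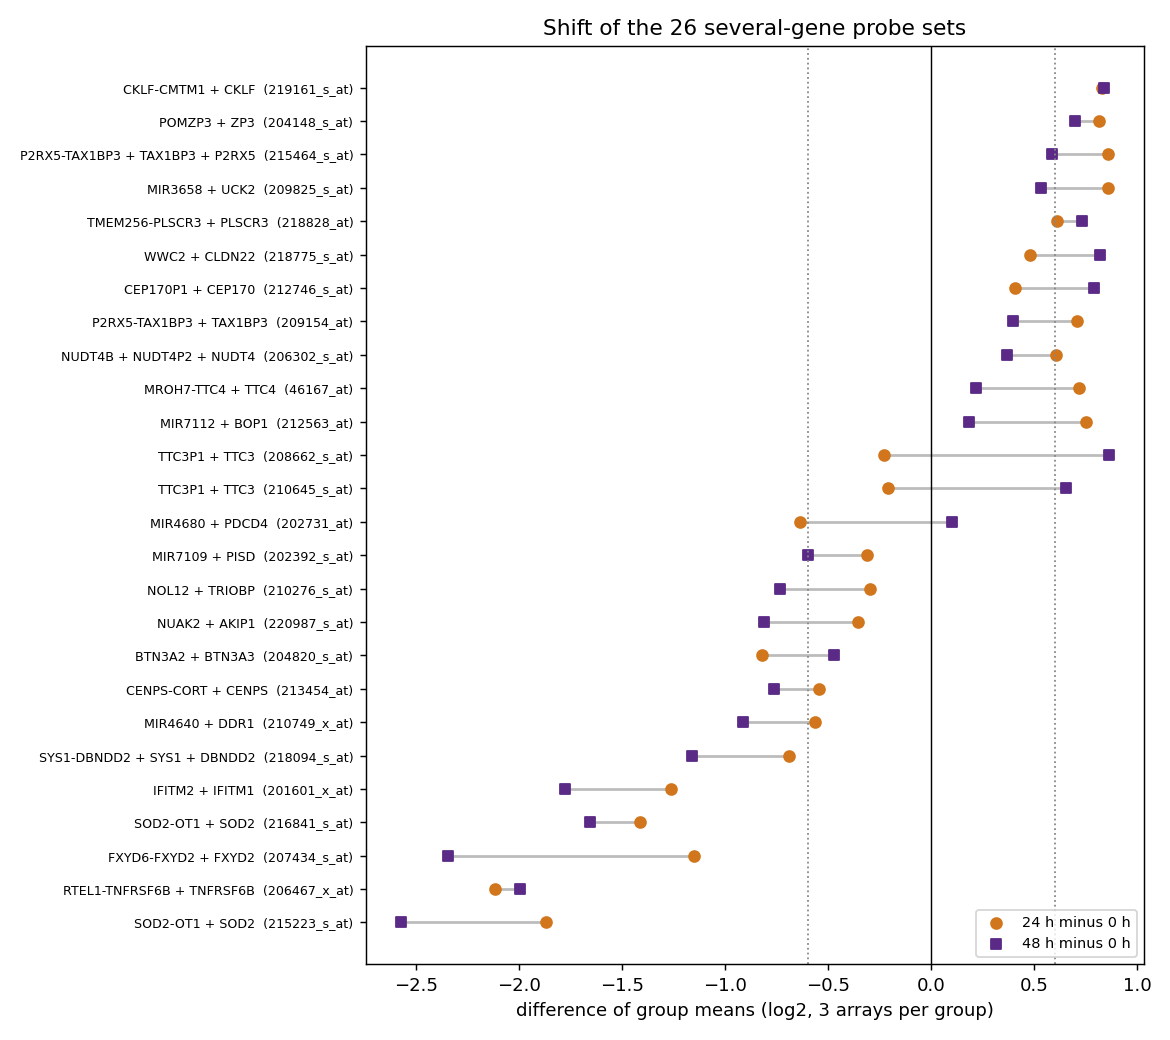
Difference of the 24 h mean (circles) and the 48 h mean (squares) from the untreated mean, in log2 with 3 arrays per group, for the 26 probe sets that list several genes. Dotted lines mark the threshold of 0.6, the lowest value is −2.57 for SOD2 at 48 h and the highest is 0.86, and the TTC3 and PDCD4 sets have their 2 points on opposite sides of 0.

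Among the 26 named sets, the 6 with a difference of at least 1 log2 were all lower after TGFβ1. They list SOD2 (2 sets), FXYD2, TNFRSF6B, IFITM1 with IFITM2, and SYS1 with DBNDD2. Members without a listed gene held larger differences, in both directions. SOD2 encodes the mitochondrial manganese superoxide dismutase, which removes superoxide. Its brighter set, 215223_s_at, which also lists SOD2-OT1, read 8.69, 7.92 and 8.0 in untreated cells of runs 1, 2 and 3, then 6.35, 6.53 and 6.12 at 24 h and 5.67, 5.72 and 5.51 at 48 h. The 3 groups did not overlap, and the order from untreated to 24 h to 48 h was the same in every run. The mean was 3.65-fold lower at 24 h and 5.95-fold lower at 48 h. The second SOD2 set, 216841_s_at, read 5.70, 5.46 and 5.70, then 4.11, 4.51 and 4.01, then 3.71, 4.07 and 4.10. Here too every treated array was below every untreated one, while the 24 h and 48 h arrays overlapped.

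The array held 4 sets with the SOD2 listing. One more, 221477_s_at, was left out by the rule because only 2 arrays reached the floor. It read 5.02, 3.70 and 6.17 in untreated cells, and its means differed from untreated cells by −1.96 at 24 h and −2.05 at 48 h, with no overlap. The last, 215078_at, was between 0.72 and 1.37 on all arrays. SOD2-OT1 lies on the same strand as SOD2 and overlaps it, and no single-gene set of either was among those analysed, so these sets do not separate SOD2 from SOD2-OT1.

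FXYD2 encodes the gamma subunit that modulates the sodium pump, Na,K-ATPase, and is known from the kidney tubule. Its several-gene set, 207434_s_at, lists FXYD2 and the readthrough FXYD6-FXYD2 and read 8.13, 8.01 and 7.95 in untreated cells, 7.07, 6.34 and 7.22 at 24 h and 5.86, 5.60 and 5.59 at 48 h. The 3 groups did not overlap. The mean differed from untreated cells by −1.15 at 24 h and by −2.35 at 48 h, which is 2.22-fold and 5.08-fold. Within runs the further step from 24 h to 48 h was −1.21, −0.74 and −1.63.

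A single-gene FXYD2 set, 205674_x_at, gave a reading that the rule did not use, although from the same RNA. It read 9.50, 9.34 and 9.28, then 8.44, 8.18 and 8.41, then 7.58, 7.03 and 7.21. FXYD2 fell by 1.03 ± 0.164 (SE, n = 3 arrays per group; limma adjusted p = 0.00795) at 24 h and fell by 2.10 (limma adjusted p = 0.000291) at 48 h. The 24 h call was lost without any 1 of the 3 runs, with differences from −1.11 to −0.96, and the 48 h call was kept. The set of FXYD6, the gene in which the readthrough starts, lay between 3.08 and 3.60 on the 9 arrays, below the floor, with differences of −0.04 at both times. This reading, and those of RTEL1 given next, were chosen after the values of the members were seen.

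**Figure D2:**
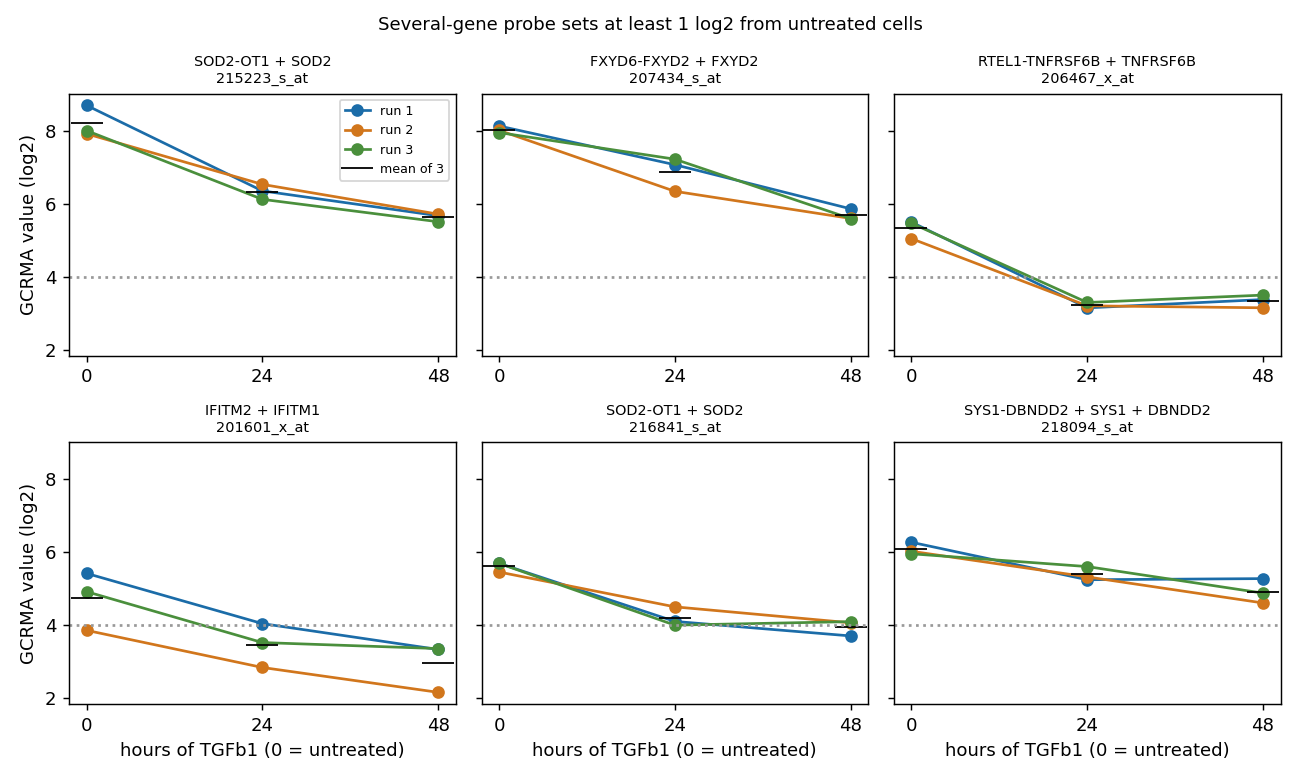
GCRMA value (log2) of the 6 several-gene probe sets at least 1 log2 from untreated cells, against hours of TGFβ1, with 1 line per run, a black bar for the mean of 3 arrays and a dotted line at the floor of 4. All 6 lie lower after TGFβ1, and the SOD2 set 215223_s_at, the FXYD2 set and the IFITM1 with IFITM2 set go down at each step in every run.

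TNFRSF6B, also known as decoy receptor 3, is a secreted receptor that binds Fas ligand and related cytokines without signalling. Its set, 206467_x_at, lists TNFRSF6B with RTEL1-TNFRSF6B and read 5.50, 5.04 and 5.47 in untreated cells, 3.15, 3.20 and 3.30 at 24 h and 3.38, 3.15 and 3.50 at 48 h. The treated arrays lay together and below the untreated ones at both times, 4.35-fold lower at 24 h and 3.99-fold lower at 48 h. This set passed the floor only through its 3 untreated arrays, so a difference was built into its choice. With all treated arrays below the floor, the size of the fold is uncertain. Sets that list RTEL1, the helicase gene in which the readthrough begins, had group means from 1.21 to 2.57 and were all below the floor. One of them, 216325_x_at, lists RTEL1 with the readthrough and differed from untreated cells by −0.61 and −0.66.

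IFITM1 and IFITM2 are neighbouring paralogs that encode interferon-induced membrane proteins, which restrict the entry of viruses. Their shared set, 201601_x_at, read 5.43, 3.87 and 4.93 in untreated cells, 4.05, 2.85 and 3.53 at 24 h and 3.34, 2.17 and 3.37 at 48 h. Run 2 was the lowest at each time, so the 24 h arrays overlapped the untreated ones although all 3 runs were lower, with differences of −1.37, −1.02 and −1.39. The single-gene set of IFITM1, 214022_s_at, differed from untreated cells by −1.50 and −1.68, and that of IFITM2, 201315_x_at, by −0.45 and −0.62. Both missed the floor, with 2 and 1 arrays at 4 or more, and were not tested.

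SYS1 encodes a Golgi membrane protein and DBNDD2 a dysbindin-related protein. The set that lists both with their readthrough, 218094_s_at, read 6.28, 6.03 and 5.96, then 5.25, 5.33 and 5.61, then 5.28, 4.62 and 4.89. No treated array overlapped an untreated one, and the mean was 1.62-fold lower at 24 h and 2.24-fold lower at 48 h. Run 1 was no lower at 48 h than at 24 h, by 0.03, whereas runs 2 and 3 were.

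BTN3A2 and BTN3A3 encode butyrophilins, surface proteins known for presenting signals to gamma delta T cells. Their shared set, 204820_s_at, read 7.26, 7.04 and 7.54 in untreated cells, 6.55, 6.43 and 6.40 at 24 h and 6.90, 6.68 and 6.85 at 48 h. It was lowest at 24 h in each run, and none of the 3 groups overlapped. The single-gene set 209846_s_at of BTN3A2 read 6.38, 5.53 and 6.22, then 5.02, 4.52 and 4.75, then 5.82, 5.11 and 5.46. BTN3A2 fell by 1.28 ± 0.26 (SE) at 24 h (limma adjusted p = 0.0271; 0.000609 with the replicate block). At 48 h it was at −0.58 and did not pass (adjusted p = 0.374), and with the replicate block it did (adjusted p = 0.022). The 24 h call was lost without run 1 or run 3, without untreated replicate 1 or 3, and without 24 h replicate 2 or 3, at values from −1.27 to −1.11. Both single-gene sets of BTN3A3 and another of BTN3A2 were below the floor on every array.

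The stretches before the BTN3A2 and BTN3A3 starts are shown because the shared set cannot separate these genes and the single-gene set reads only BTN3A2. The 250 bases upstream of the first BTN3A2 start in the table and of the BTN3A3 start had 220 identical bases of 245 aligned, or 89.8%. Each holds 1 AP-1 motif, spelled TGANTCA and searched on both strands, which is in capitals below. The motif reads the same on both strands and was in 6.57% of 35116 RefSeq promoter windows of this length. Among the 50 windows of listed genes it was in 7, those of BTN3A2, BTN3A3, CENPS, CENPS-CORT, DDR1, PISD and TRIOBP. CENPS and CENPS-CORT have the same window and those of BTN3A2 and BTN3A3 are alike. The 7 are thus not separate sites, and nothing is read from their count beside the share of all windows. A match is a description of the letters and not a binding site.
BTN3A2 (GRCh38.p14, chr6:26364948-26365197, plus strand): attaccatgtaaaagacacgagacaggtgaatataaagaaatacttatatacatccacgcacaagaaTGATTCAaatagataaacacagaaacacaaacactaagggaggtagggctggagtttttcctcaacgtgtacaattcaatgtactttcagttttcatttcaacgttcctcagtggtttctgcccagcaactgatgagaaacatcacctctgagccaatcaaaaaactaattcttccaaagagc
BTN3A3 (GRCh38.p14, chr6:26440254-26440503, plus strand): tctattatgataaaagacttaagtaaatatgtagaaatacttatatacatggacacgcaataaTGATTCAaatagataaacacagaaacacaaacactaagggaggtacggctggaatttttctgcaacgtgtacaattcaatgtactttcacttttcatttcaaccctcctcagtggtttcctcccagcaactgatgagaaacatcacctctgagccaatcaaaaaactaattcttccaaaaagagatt
For IFITM1, whose interferon response is known, the same upstream stretch is shown with its interferon response element motif, GAAA, any 2 bases and GAAA again, in capitals. That motif was in 3.02% of all windows on either strand, and among the listed genes it was in 2 windows, those of IFITM1 and DDR1.
IFITM1 (GRCh38.p14, chr11:313790-314039, plus strand): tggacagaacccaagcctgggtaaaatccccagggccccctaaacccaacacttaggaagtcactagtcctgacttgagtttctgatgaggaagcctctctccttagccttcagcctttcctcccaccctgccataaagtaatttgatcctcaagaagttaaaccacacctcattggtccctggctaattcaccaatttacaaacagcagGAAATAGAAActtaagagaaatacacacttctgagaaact
The palindrome GTCTAGAC, to which SMAD proteins bind, was in none of the 50 windows and in 0.182% of all windows. The kappaB motif was in 2 of the 50, both of DDR1, and in 5.21% of all windows.

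CKLF encodes a chemokine-like factor that attracts leukocytes. Its set with the readthrough CKLF-CMTM1, 219161_s_at, was bright, at 9.72, 9.84 and 9.37 in untreated cells, and read 10.40, 10.71 and 10.30 at 24 h and 10.41, 10.63 and 10.41 at 48 h. All treated arrays lay above all untreated ones, 1.77-fold higher at 24 h and 1.79-fold at 48 h, and the 24 h and 48 h arrays overlapped. In RefSeq the readthrough shares a start with CKLF. The single-gene CKLF set, 221058_s_at, read 9.03, 8.92 and 8.49, then 9.68, 9.69 and 9.41, then 9.60, 9.62 and 9.35. CKLF rose by 0.78 ± 0.172 (SE) at 24 h (limma adjusted p = 0.0368; 0.00293 with the replicate block), a call that was lost without any 1 array or run, at values from 0.62 to 0.89, and with quantile normalization (0.76) or with no floor. At 48 h it was at 0.71 (adjusted p = 0.0567), and it passed with the replicate block (adjusted p = 0.00472).

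**Figure D3:**
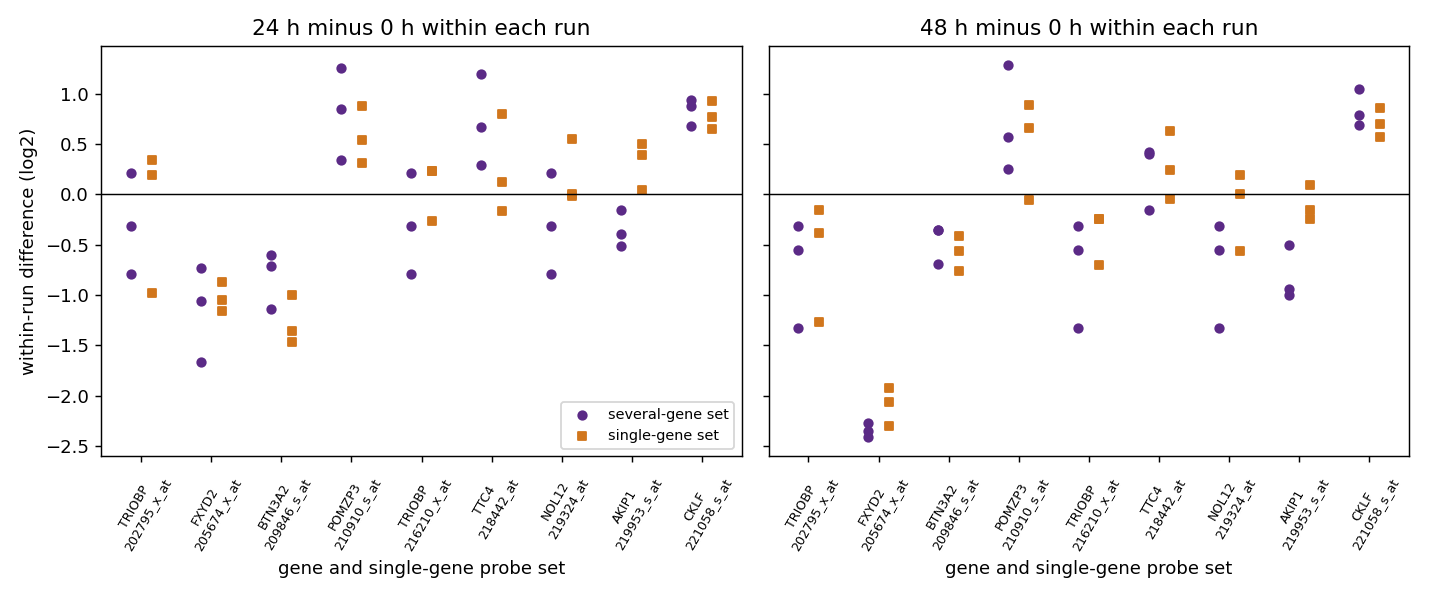
Difference from untreated cells within each run (log2), at 24 h on the left and 48 h on the right, for the several-gene set (circles) and each tested single-gene set (squares) of the same gene, with 1 point per run. The FXYD2, BTN3A2 and CKLF points of both sets lie on 1 side of 0 at both times, whereas those of AKIP1 lie above 0 at 24 h in the single-gene set and below it in the several-gene set.

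Across the members, 7 had at least 1 single-gene set of a listed gene that passed the floor, with 9 such sets for 8 genes. At 24 h 3 of the 9 passed the threshold, FXYD2 and BTN3A2 lower and CKLF higher, beside 4.22% of all 6681 sets (2.36% higher and 1.86% lower). At 48 h 1 passed, FXYD2, which was lower, beside 3.98% of all sets (2.16% higher and 1.83% lower). With the replicate block the same 3 genes passed at both times, beside 10.5% and 9.03% of all sets. The replicate block is a term for the run, so that differences are read within runs. The count of 3 at 24 h fell to 0 without run 1 or run 3 and to 1 without run 2, and a single array left out gave 1 to 3. These 9 sets read genes for which another set on the same arrays had already met the shift, so the choice of genes favours such calls, and nothing is read from the count beside the share of all sets. The median difference of the 9 sets was 0.18 at 24 h and −0.12 at 48 h, beside 0.02 and 0.04 over all sets.

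The other 6 single-gene sets did not pass. POMZP3, a fusion of sequence from POM121 and the egg coat gene ZP3, was at 0.58 and 0.50 on 210910_s_at (adjusted p = 0.238 and 0.352), while its set with ZP3, 204148_s_at, was higher by 0.81 and 0.70 (0.41 at 48 h without run 3). TTC4, a co-chaperone, was at 0.25 and 0.28 on 218442_at (adjusted p = 0.613 and 0.656), while 46167_at, which adds the readthrough MROH7-TTC4, was higher by 0.72 at 24 h (0.48 without run 2) and 0.22 at 48 h. AKIP1, which binds protein kinase A, was at 0.31 and −0.11 on 219953_s_at (adjusted p = 0.458 and 0.896). The set that lists AKIP1 with the AMPK-related kinase NUAK2, 220987_s_at, was at −0.35 and −0.81. Here the single-gene and the several-gene set had opposite signs at 24 h in every run. The difference between the sets was not tested.

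TRIOBP encodes an actin-binding protein and NOL12 a nucleolar protein, and their genes are neighbours on chromosome 22. Their shared set, 210276_s_at, differed from untreated cells by −0.30 at 24 h and −0.74 at 48 h. The TRIOBP sets 202795_x_at and 216210_x_at were at −0.61 and −0.40 at 48 h, and the NOL12 set 219324_at at −0.12, none past the threshold (adjusted p = 0.283, 0.347 and 0.974). The shared set was at −0.48 at 48 h without untreated replicate 2 and at −0.44 without run 2. The TRIOBP readings at 48 h had the sign of the shared set in each run.

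TTC3 encodes a ubiquitin ligase, and its sets also list the pseudogene TTC3P1. Both of its 2 member sets were below the untreated mean at 24 h and above it at 48 h. The set 208662_s_at read 7.42, 6.27 and 7.66 in untreated cells, 7.63, 6.42 and 6.61 at 24 h and 8.28, 7.69 and 7.96 at 48 h. At 48 h it lay above both other groups without overlap, while untreated and 24 h arrays overlapped. The set 210645_s_at read 6.58, 5.72 and 6.88, then 6.42, 5.69 and 6.44, then 7.16, 6.70 and 7.28. Without untreated replicate 2, which was the lowest untreated array in both, the 48 h differences went from 0.86 to 0.44 and from 0.65 to 0.32.

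The array held 6 sets with this TTC3 listing, of which 5 passed the floor. All 5 were below the untreated mean at 24 h, by −0.52 to −0.20, and above it at 48 h, by 0.51 to 0.86. Runs disagreed against untreated cells. At 24 h 208662_s_at was at 0.21, 0.15 and −1.05 in runs 1, 2 and 3, so that its lower mean came from run 3, and 208661_s_at was at 0.32 in run 1. At 48 h 208661_s_at was at −0.03 in run 3. The step from 24 h to 48 h was 0.77 to 1.09 and was upward in every run in all 5. The sets share a target, so they are not independent readings, and the TTC3 sets were singled out after their values were seen. The limma comparison of 48 h with 24 h called none of them.

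**Figure D4:**
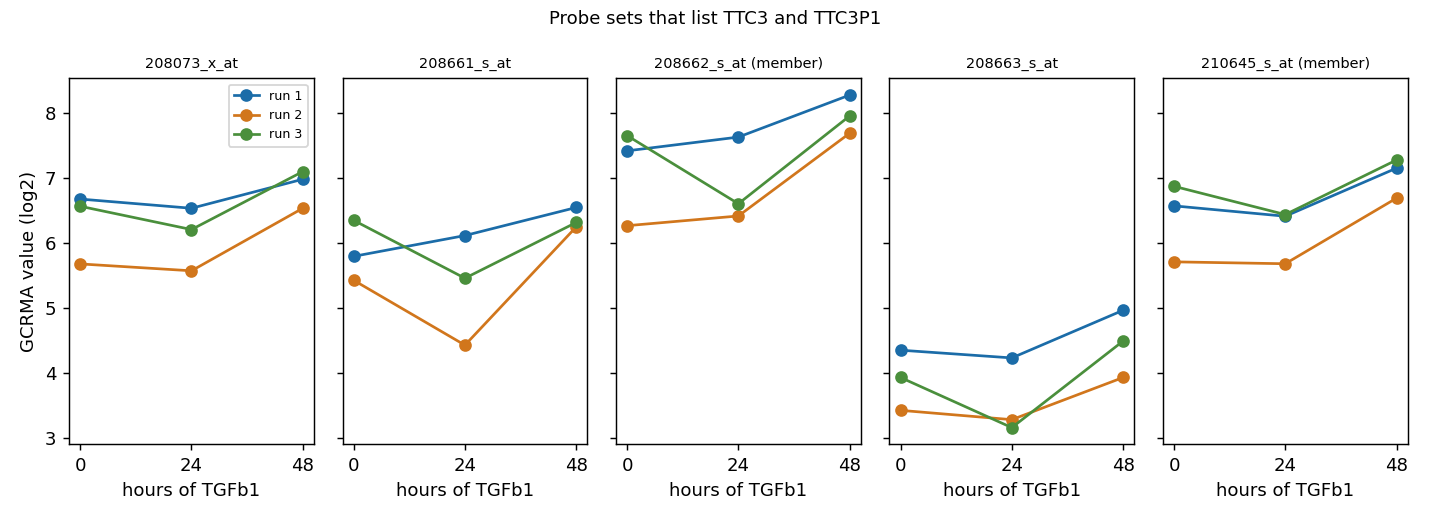
GCRMA value (log2) of the 5 probe sets that list TTC3 and TTC3P1 and passed the floor, against hours of TGFβ1, with 1 line per run. Every line ends higher at 48 h than at 24 h, and run 2 starts lowest in each set.

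PDCD4 encodes an inhibitor of translation initiation. Of its 4 sets, which all list MIR4680, 202731_at was a member and read 4.71, 3.92 and 4.92, then 4.22, 3.63 and 3.81, then 4.80, 4.27 and 4.79. It was at −0.64 from untreated cells at 24 h and back at 0.10 at 48 h, when it lay above the 24 h arrays without overlap. The brighter PDCD4 set, 212593_s_at, was at −0.20 and 0.13, so the member showed the larger difference. Without run 3 the 24 h difference of the member was −0.40.

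DDR1 encodes a receptor tyrosine kinase that is activated by collagen. The member 210749_x_at, which lists MIR4640, read 6.13, 5.85 and 5.98, then 5.48, 5.05 and 5.75, then 5.44, 4.49 and 5.30, with no overlap between treated and untreated arrays. It differed from untreated cells by −0.56 and −0.91. The other 3 DDR1 sets differed from untreated cells by −0.40 to −0.20 at 24 h and by −0.52 to −0.42 at 48 h, all with overlap. Of these, 207169_x_at missed the floor, with 2 arrays at 4 or more. The 4 sets had 1 sign and differed in size. PISD, the mitochondrial phosphatidylserine decarboxylase listed with MIR7109 on 202392_s_at, differed from untreated cells by −0.31 and −0.60. It was the member nearest to the threshold, and its groups overlapped at both times. Its 48 h difference was −0.91 without 48 h replicate 2 and −0.34 without 48 h replicate 3.

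The other microRNA hosts were higher at 24 h. UCK2, a uridine-cytidine kinase listed with MIR3658 on 209825_s_at, read 6.24, 6.76 and 5.68 in untreated cells and 6.94, 7.43 and 6.88 at 24 h, with no overlap. It was higher by 0.86 at 24 h and 0.53 at 48 h, when the arrays overlapped. BOP1, a ribosome biogenesis factor listed with MIR7112 on 212563_at, was higher by 0.75 at 24 h and 0.18 at 48 h, with overlap at both times and an untreated SD of 1.01, the widest among the named sets. Its 24 h difference was 0.24 without untreated replicate 1, 1.25 without untreated replicate 2 and 0.39 without 24 h replicate 2. Its other set, 216397_s_at, was at 0.88 and 0.23 and missed the floor.

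Among the readthrough sets that were higher, TAX1BP3, a small PDZ domain protein, appeared in 2. The set 209154_at, with P2RX5-TAX1BP3, read 9.76, 10.06 and 9.75, then 10.35, 10.68 and 10.66, then 10.24, 10.28 and 10.24. The set 215464_s_at, which adds the ATP-gated channel gene P2RX5, read 7.70, 7.91 and 7.49, then 8.51, 8.65 and 8.52, then 8.23, 8.44 and 8.19. In both sets the 3 groups did not overlap, with 24 h highest and 48 h between, and the differences were 0.71 and 0.40 in the first and 0.86 and 0.59 in the second. The single-gene P2RX5 set, 210448_s_at, was between 2.31 and 3.13 on the 9 arrays, below the floor.

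PLSCR3, a mitochondrial phospholipid scramblase listed with TMEM256-PLSCR3 on 218828_at, was higher by 0.61 and 0.73, with no overlap at either time. Its other set, 56197_at, was at 0.31 and 0.28. CENPS, a centromere protein listed with CENPS-CORT on 213454_at, differed from untreated cells by −0.54 and −0.76, with overlap at both times. By RefSeq the readthrough shares its start with CENPS, as with CKLF. RTEL1-TNFRSF6B, MROH7-TTC4 and TMEM256-PLSCR3 have starts other than those of TNFRSF6B, TTC4 and PLSCR3. The starts of SYS1-DBNDD2 and SYS1 are not the same base but lie close together, with upstream windows at chr20:45362919-45363168 and chr20:45362906-45363155.

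WWC2, a relative of the Hippo pathway regulator KIBRA, holds the claudin gene CLDN22 on the opposite strand. Their set, 218775_s_at, read 5.82, 5.41 and 5.90, then 6.33, 6.17 and 6.08, then 6.52, 6.57 and 6.50, so that the 3 groups were in order without overlap, by 0.48 and 0.82. CEP170, a centrosomal protein listed with its pseudogene on 212746_s_at, was at 0.40 and 0.79 with overlap, and 207719_x_at, a brighter set of the same listing, at −0.03 and 0.41. The 48 h difference of 212746_s_at was 0.26 without untreated replicate 2 and 0.39 without run 2. NUDT4, an enzyme that cleaves diphosphoinositol polyphosphates, listed with NUDT4B and NUDT4P2 on 206302_s_at, was at 0.61 and 0.37, and a second set, 212181_s_at, at 0.20 at both times. For PLSCR3, CEP170 and NUDT4 a second set of the same listing thus had a smaller difference at the time that made the first a member.

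The change between 24 h and 48 h was the comparison that the rule did not use as such, although both means enter it. With limma, 0 of the 26 named sets and 0 of the 42 others passed, as did 0% of all 6681 sets, with and without the replicate block. At an unadjusted p under 0.05 there were 8 of the 26 and 12 of the 42, where all sets gave 343 or 5.13%. A large mean at only 1 of the 2 times was enough for membership, which favours a difference between the times, so nothing is read from these counts. The arrays of the 2 times did not overlap in 11 of the 26, beside 12.7% of all sets. The step was of 1 sign in all 3 runs in 18 of the 26. The share of all sets with 1 sign was not computed, and nothing is read from either count. The step was lowest for FXYD2, at −1.19, and highest for TTC3, at 1.09, over a range of −1.72 to 1.46 for all sets.

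Near the threshold, the members just inside were the PISD set at 0.6, the NUDT4 set at 0.61 and the PDCD4 set at 0.64. Just outside were the HAUS4 set with MIR4707 and the ANKHD1 set with its readthrough, both at 0.58, and the PHLDB1 set with MIR6716 at 0.57. A further 15 several-gene sets met the shift and missed the floor. Of the 26 members, 17 were at the floor or above on all 9 arrays.

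The 42 members without a gene in the annotation table are not named here. They include 24 higher and 18 lower sets. The differences at 24 h went from 0.11 to 4.23, with a median of 0.78, among the higher ones and from −3.01 to −0.11, with a median of −0.64, among the lower ones. Those of at least 1 log2 were 10 higher and 7 lower sets. Of the sets without a listed gene that passed the floor, 10.7% of 391 met the shift.

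Sets that list a microRNA or a small nucleolar RNA numbered 129, with medians of 0.02 at both times. With limma 0 of them passed at either time, beside 4.22% of all sets at 24 h and 3.98% at 48 h. At an unadjusted p under 0.05 there were 9 and 4, beside 15.3% and 13.6% of all sets. With the replicate block 9 and 2 passed, beside 10.5% and 9.03% of all sets. For comparison, of 10 sets of early TGF-beta target genes 8 rose at 24 h and 7 at 48 h and 0 fell, with medians of 2.07 and 1.94. Over all sets 2.36% rose at 24 h and 2.16% at 48 h by the same threshold. The probe set suffix _s_at, for probes shared by several transcripts, was carried by 65.4% of the named members and 45.4% of several-gene sets past the floor. The suffix _x_at, for probes that can bind unrelated transcripts, was carried by 11.5% and 34.1%.

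Across the series, array medians lay between 2.20 and 2.23 and arrays correlated at 0.931 to 0.99 over the sets past the floor. Of 6 epithelial markers 5 passed the floor, and the E-cadherin gene CDH1 was at 1.28 in untreated cells. EPCAM went from 8.36 to 7.10 and 7.19 at 24 h and 48 h, CLDN1 from 8.35 to 6.65 and 6.40, KRT8 from 7.34 to 7.98 and 7.79 and KRT18 from 9.74 to 9.88 and 9.47. The summed level of the 6 was 43.6 to 44.6 in untreated cells, 40.5 to 42.2 at 24 h and 40.1 to 41.6 at 48 h, and its part in the members' differences was not tested. Of 8 proximal tubule markers matched only PAX8 did (7.37, then 6.77 and 6.56), so the transporters and endocytic receptors that define that segment were below the floor. Of 6 fibroblast, 5 endothelial and 4 leukocyte markers, 1, 0 and 0 passed, the one being LUM. The leukocyte markers PTPRC and CD14 were at 1.56 and 1.63 in untreated cells.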

How the data were processed

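RNA of HK-2 cells was hybridised to 1-colour Affymetrix arrays, and the deposited values are on a log2 scale, made by the authors, whose processing notes name GCRMA, a method that corrects background by probe sequence, normalizes between arrays and summarises each set. The sources used here give no GCRMA version. The log base was read from the range of the values. The number of arrays limits the precision. Values were used as deposited, from all 9 arrays. Of 22277 probe sets, 62 controls were left out. The annotation gave 1043 sets several symbols, 19070 one and 2164 none, controls included.

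Sets past the floor were fitted with limma 3.58.1 in R 4.3.3 (lmFit, eBayes, all 9 arrays in 1 fit) with Benjamini-Hochberg adjustment over 6681 sets and a threshold of 0.05. The fit was tested on simulated data. Deviations from group means correlated at 0.379 to 0.661 between arrays with the same replicate number. Between arrays that differed in both number and group they correlated at −0.521 to 0.173, so the numbers were taken to mark the runs. The p-values measure spread between runs of 1 cell line. Upstream windows were aligned with Biopython 1.88. Named sets are those at least 1 log2 from untreated cells, given with every array, and the other several-gene members, the sets nearest the threshold and tested single-gene sets of listed genes. Members without a listed gene are given by counts and ranges, and their IDs are not reported here, although the rule for naming allowed a few. Array values of other members were chosen for printing after they were seen. The members and lists were chosen with earlier results of these data known. Alternatives changed the thresholds, the normalization, the eBayes prior, the block and the arrays.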

Additional observations from a re-analysis of the deposited data

How the results depend on the processing

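The rule gave 106 members at a shift of 0.5 and 41 at 0.8, and 112 with no floor, where the several-gene members numbered 40, 15 and 41. A floor of 5 kept 47 members, 20 of them with several genes. Centring the arrays gave 68 members and quantile normalization 67, of which 67 and 65 were in common with the deposited values. Leaving out 1 array or 1 run gave 64 to 98 members, with 54 to 67 of the 68 in common without 1 array and 50 to 58 without 1 run. The single-gene sets past the threshold at 24 h numbered 0 to 3 when an array or run was left out, 3 with the replicate block and 2 with quantile normalization. At 48 h the count was 1 under each array or run left out, 3 with the replicate block and 2 with an intensity trend in eBayes. For 48 h against 24 h the count of members past the threshold was 0 under every alternative run. Of 490 recomputed differences of named members, 0 changed sign and 2 moved by more than the spread between replicates, those of the SOD2 set 216841_s_at (−1.64) and the TTC4 set 46167_at (0.48), both at 24 h without run 2. Of the 35 differences past the shift threshold, 9 moved by over 1.5 times without an array or run, as given beside the genes. Of 316 recomputed single-gene differences, 23 lost and 4 gained a call and 0 reversed one. Of the 26 named sets, 17 were at the floor on all 9 arrays, and the TNFRSF6B, IFITM1 with IFITM2 and PISD sets on 3.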
